A study of Mus musculus with 12 samples.

Results

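The genes described here belong to the clearance of apoptotic cells: the TAM receptor tyrosine kinases Axl, Mertk and Tyro3, their bridging ligands Gas6 and Pros1, and the genes C1qa, C1qb and C1qc, which encode the chains of the complement protein C1q. They are 8 of the 23904 genes named on the array, and 10 of its 45281 probes carry their symbols. They were chosen by pathway and by their measured values in the knockout comparisons, because Axl was higher in both knockouts and C1qb in the double knockout. Their differences from wild type are therefore given as a description without a test.

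Expression was measured on 12 Illumina Mouse WG6V2 BeadChip arrays, on which each probe is a bead-bound oligonucleotide of 50 bases. The RNA came from Lineage-negative, Kit-positive, CD45.2-positive cells that were sorted from femur and tibia marrow. The labels call this population enriched for blood-forming stem cells and progenitors. The strain given for every sample is C57BL/6, and each came from a chimera, 12 to 16 weeks after transplantation of fetal liver cells of embryonic day 13.5. The genotypes are those of the transplanted cells, and the host's own tissues, including the stroma around the sorted cells, were not selected for. The 4 groups of 3 arrays are the wild type of experiment 1 (WT experiment 1), the caspase-9 knockout (Casp9 KO), the wild type of experiment 2 (WT experiment 2) and cells lacking both Bak and Bax (Bak/Bax DKO, a double knockout). Caspase-9 is the protease that starts the caspase cascade downstream of mitochondria, and Bak and Bax are the proteins that open the outer mitochondrial membrane upstream of it. The comparisons ask how loss of either step changes transcripts, and the series is titled for cytokine signals that depend on caspase-9.

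Cells that die by apoptosis expose phosphatidylserine on their surface. Gas6 and protein S, the product of Pros1, bind that lipid at one end and a TAM receptor at the other, so that a phagocyte carrying the receptor can take up the dying cell and damp its own inflammatory signalling. C1q binds apoptotic cells and debris directly, and is made mainly by macrophages and dendritic cells rather than by the liver. Axl is known as an interferon-inducible receptor in dendritic cells and macrophages.

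The promoters of the genes with the largest differences are shown because those genes were higher in the knockouts together. They are the 250 bases before the RefSeq start in GRCm38.p6, read along the gene, with capitals marking a match to a searched motif.
Axl (chr7:25788734-25788983, minus strand): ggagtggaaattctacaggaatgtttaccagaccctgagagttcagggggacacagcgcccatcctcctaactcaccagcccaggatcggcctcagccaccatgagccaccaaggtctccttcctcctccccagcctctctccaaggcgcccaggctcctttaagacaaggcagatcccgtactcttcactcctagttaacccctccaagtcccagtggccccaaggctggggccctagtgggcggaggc
C1qb (chr4:136886201-136886450, minus strand): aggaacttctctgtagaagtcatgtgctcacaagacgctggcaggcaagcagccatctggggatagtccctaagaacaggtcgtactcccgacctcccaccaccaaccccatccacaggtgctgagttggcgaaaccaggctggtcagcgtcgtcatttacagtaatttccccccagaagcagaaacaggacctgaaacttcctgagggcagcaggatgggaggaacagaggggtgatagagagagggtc
C1qc (chr4:136892915-136893164, minus strand): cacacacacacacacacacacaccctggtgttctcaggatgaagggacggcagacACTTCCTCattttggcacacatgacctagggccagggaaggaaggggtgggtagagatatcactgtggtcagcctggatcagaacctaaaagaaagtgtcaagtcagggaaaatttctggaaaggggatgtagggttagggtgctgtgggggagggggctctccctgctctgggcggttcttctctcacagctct
Of the 8 genes, 7 had a promoter entry, and 4 motifs were searched on both strands in the 300 bases around each start. They are the core of the interferon-stimulated response element (GAAANNGAA), the STAT element GAS (TTCNNNGAA), a PU.1 site (GAGGAAGT) and a half-site of the Maf recognition element (TGCTGAC). The share of all 32851 promoters with a match was 8.56%, 8.30%, 3.20% and 4.67% in that order. The C1qc promoter held the PU.1 letters on its minus strand, read as ACTTCCTC from base -195, and the Pros1 promoter held the GAS letters as TTCCAGGAA from base -92. Axl, C1qb, Gas6, Mertk and Tyro3 held none of the 4 in this window. In RefSeq order C1qb, C1qc and C1qa are direct neighbours on chromosome 4, between the noncoding gene Gm31536 and the ephrin receptor gene Epha8.

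The targeted genes followed the labels: Casp9 was at 8.62 ± 0.52 in WT experiment 1 and 5.36 ± 0.12 in Casp9 KO (SD, n = 3, log2). Bak1 was at 6.53 ± 0.24 in WT experiment 2 and at background on all 3 Bak/Bax DKO arrays (4.62 ± 0.12), and Bax was at 9.70 ± 0.33 and 7.88 ± 0.15. No source used here says whether these probes lie in a deleted exon. Each knockout shares a beadchip with its own wild type. Mean bead intensity was 321.5 to 522.0 on 11 arrays and 234.5 on Bak/Bax DKO replicate 2, whose correlation with any other array, over probes, was 0.856 to 0.869. Differences of the 8 genes in Bak/Bax DKO and calls on listed genes are given with and without it, for the lists in a comparison added after seeing the data. On each array 35.7% to 39.7% of the probes had a detection p under 0.05 and are called above background, and the lowest value above background was 4.82 to 5.04 on the log2 scale. The samples are called independent in the series text, but no label ties them to separate animals. A p-value here reflects sample-to-sample spread, which may be technical, and the number of arrays limits the precision.

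Of the 10 probes, 6 passed the filter, which asks for a signal above background on at least 3 of the 12 arrays. They represent Axl, Pros1, Gas6, C1qa, C1qb and C1qc, 1 probe each. The Mertk and Tyro3 probes and a second Axl probe were above background on 0 of 12 arrays. A probe that was at background in wild type could pass only through the knockout arrays, as all 3 C1q probes did.

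**Figure D1:**
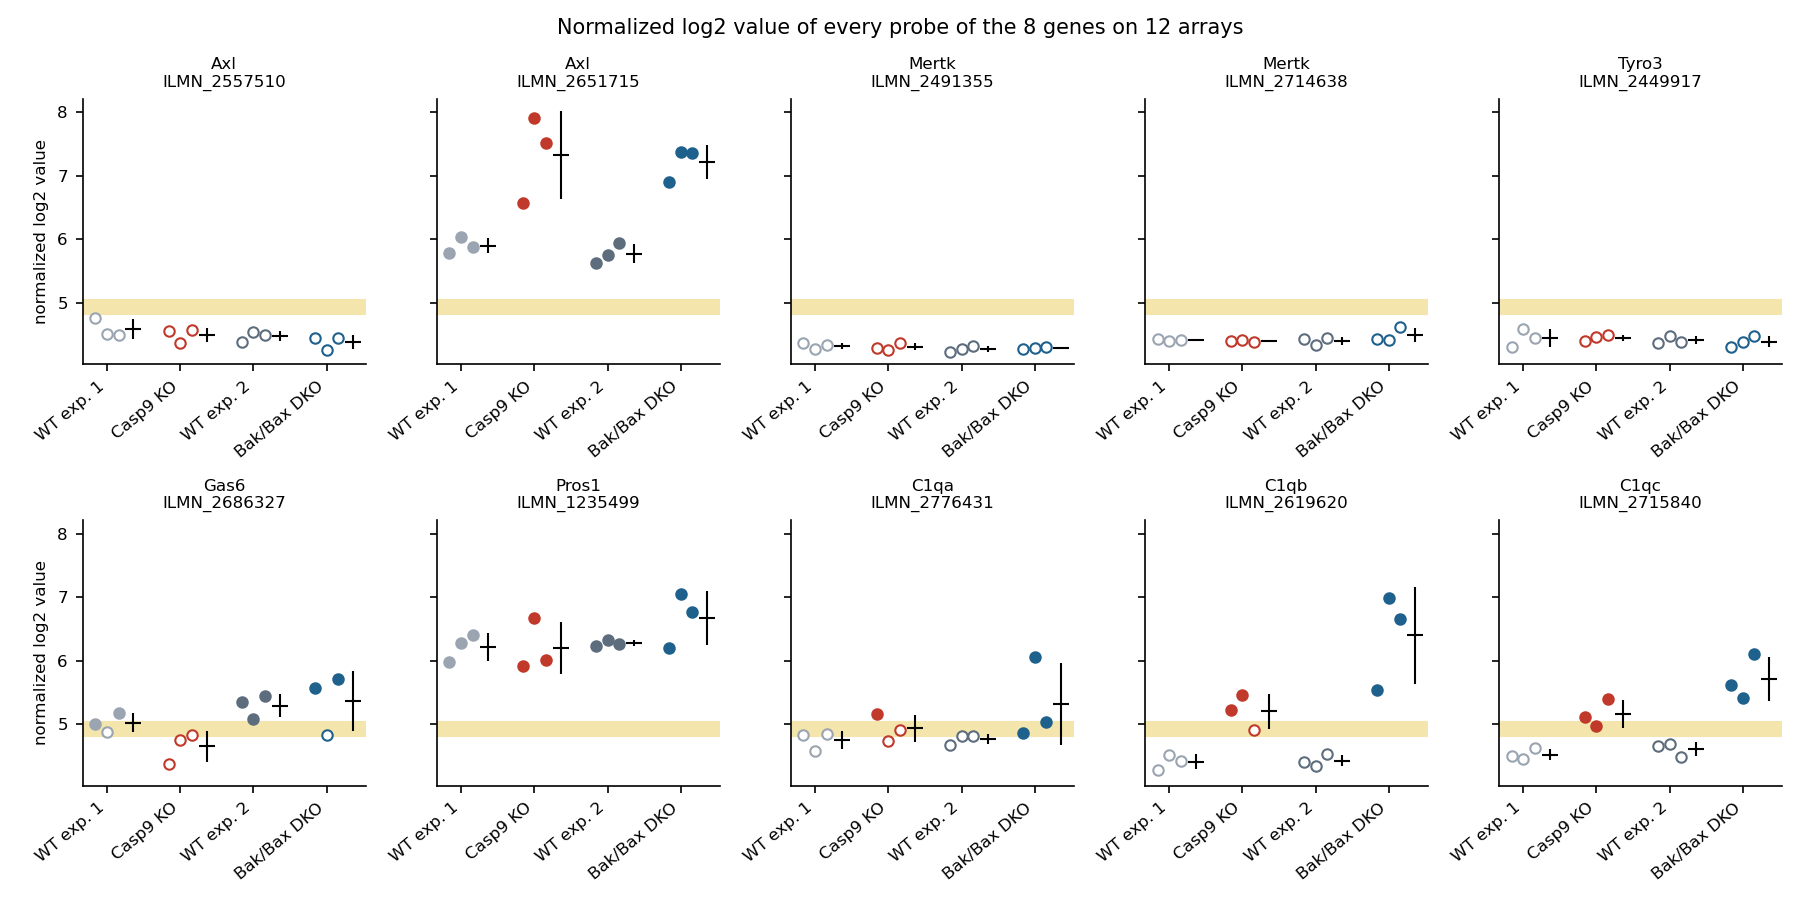
Normalized log2 value of each of the 10 probes on the 12 arrays, by group; filled points are above background and open points are not, the black mark and bar are the mean and SD of 3 arrays, and the band spans the lowest value above background on the arrays (4.82 to 5.04). Axl lies between 5.63 and 6.03 on the wild-type arrays and between 6.57 and 7.90 on the knockout arrays, and the C1qb and C1qc points are open in both wild types.

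Axl was the TAM receptor with a measurable transcript in these cells, and it was higher in both knockouts. Its detected probe (ILMN_2651715, chromosome 7, 26542331 to 26542380 on the minus strand as the files give it, in a genome build that no source used here names) read 5.79, 6.03 and 5.88 on the WT experiment 1 arrays. On the Casp9 KO arrays it read 6.57, 7.90 and 7.52. All 3 knockout arrays lay above all 3 wild-type arrays, and Casp9 KO replicate 1 was the lowest of the knockout arrays. In experiment 2 the probe read 5.63, 5.75 and 5.94 on the wild-type arrays and 6.90, 7.37 and 7.36 on the Bak/Bax DKO arrays. Again the groups did not overlap, and the 3 double knockout arrays lay closer together than those of Casp9 KO.

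The mean Axl level was 7.33 ± 0.69 in Casp9 KO against 5.90 ± 0.12 in WT experiment 1 (SD, n = 3), a log2 difference of 1.43 (SE 0.29), or 2.69-fold. It was 7.21 ± 0.27 in Bak/Bax DKO against 5.77 ± 0.15 in WT experiment 2, a difference of 1.44 (SE 0.29), or 2.71-fold. The difference ranked 109 of 18867 tested probes, counted from the largest rise, in Casp9 KO and 138 in Bak/Bax DKO. For comparison, the median over all tested probes was -0.03 in Casp9 KO and 0.08 in Bak/Bax DKO. In the latter it becomes -0.14 when arrays are centred on their medians in place of quantile normalization. RNA from a sorted population cannot tell more Axl-expressing cells from more Axl RNA per cell, which holds for each gene below. Without Bak/Bax DKO replicate 2 the double knockout difference was 1.36. It was 0.78 in Casp9 KO and 0.73 in Bak/Bax DKO without background correction, with the same direction.

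On the bead intensity scale, before background correction and normalization, the same probe read 143.9, 158.4 and 154.4 in WT experiment 1 and 189.6, 438.9 and 262.8 in Casp9 KO. In experiment 2 it read 148.5, 129.2 and 116.9 on the wild-type arrays and 196.9, 161.3 and 250.0 on the Bak/Bax DKO arrays. The Axl knockout intensities were above the wild-type ones in both experiments. These are the same arrays on which the gene was chosen, so they are no separate support. The lowest of the double knockout values belongs to replicate 2, the array with the lowest mean intensity.

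The second Axl probe (ILMN_2557510, chromosome 7, 26548848 to 26548897) stayed between 4.26 and 4.76 on the 12 arrays, below background throughout, so it neither matches nor contradicts the first. Mertk, the TAM receptor best known for uptake of apoptotic cells by macrophages, was below background at both of its probes on chromosome 2. They read 4.23 to 4.37 (ILMN_2491355, 128628627 to 128628676) and 4.33 to 4.63 (ILMN_2714638, 128627827 to 128627876). Tyro3, the TAM receptor known mainly from the nervous system, read 4.30 to 4.60 (ILMN_2449917, chromosome 2, 119642877 to 119642926). Their knockout differences are not described, since no group had a signal above background.

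Of the bridging ligands, neither was higher without overlap in a knockout. Pros1, which encodes the anticoagulant protein S, was above background on 12 of 12 arrays (ILMN_1235499, chromosome 16, 62928728 to 62928777). It read 5.98, 6.28 and 6.41 in WT experiment 1 and 5.91, 6.67 and 6.02 in Casp9 KO. In experiment 2 it read 6.24, 6.33 and 6.27 on the wild-type arrays and 6.21, 7.05 and 6.77 on the Bak/Bax DKO arrays. The knockout and wild-type arrays overlapped in both experiments. The log2 difference was -0.02 (SE 0.25) in Casp9 KO and 0.40 (SE 0.25) in Bak/Bax DKO, the latter 0.21 without replicate 2.

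Gas6, the vitamin K-dependent ligand of all TAM receptors, was near the detection limit (ILMN_2686327, chromosome 8, 13465655 to 13465704). It read 5.01, 4.89 and 5.18 in WT experiment 1, where 2 of 3 arrays were above background, and 4.37, 4.76 and 4.83 in Casp9 KO, where 0 of 3 were. On the normalized scale the Casp9 KO arrays were all below the wild-type arrays. On the bead intensity scale the groups overlapped, with 137.3 on Casp9 KO replicate 2 and 120.6, 122.2 and 132.1 on the wild-type arrays. The normalized level was at least 1.06-fold lower, with measured means of 4.65 ± 0.24 and 5.03 ± 0.15 (SD, n = 3). A bound that close to 1 leaves the size unmeasured, though the fitted difference was -0.37 (SE 0.23). In experiment 2, Gas6 read 5.35, 5.09 and 5.44 on the wild-type arrays and 5.57, 4.83 and 5.71 on the Bak/Bax DKO arrays. The groups overlapped because of replicate 2, and the difference was 0.08 (SE 0.23), or 0.35 without that array.

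The C1q genes were below background in both wild types and appeared above it in the knockouts, most clearly in Bak/Bax DKO. C1qb, the B chain (ILMN_2619620, chromosome 4, 136436368 to 136436417, minus strand), read 4.29, 4.52 and 4.42 in WT experiment 1 and 5.23, 5.46 and 4.92 in Casp9 KO. The first 2 of these 3 knockout values were above background. In experiment 2 it read 4.41, 4.35 and 4.52 on the wild-type arrays and 5.54, 6.99 and 6.66 on the Bak/Bax DKO arrays, all 3 above background. The lowest double knockout array, on another beadchip, lay above the highest Casp9 KO array.

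C1qb was at least 1.17-fold higher in Casp9 KO, with means of 5.20 ± 0.27 and 4.41 ± 0.12 (SD, n = 3), and at least 2.85-fold higher in Bak/Bax DKO, with means of 6.40 ± 0.76 and 4.43 ± 0.09. These bounds set the knockout mean against the lowest value above background on the wild-type arrays. For each C1q gene the Bak/Bax DKO bound includes replicate 2 and was not computed without it. The fitted differences were 0.79 and 1.97 (SE 0.31 each), but background readings stand in for the wild-type level in them, so they are not measured sizes. The same holds for C1qc and C1qa. Without Bak/Bax DKO replicate 2, which had the highest C1qb value, the double knockout difference was 1.67. Without background correction the differences were 0.30 and 0.78.

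C1qc, the C chain (ILMN_2715840, chromosome 4, 136446133 to 136446182, minus strand), read 4.49, 4.45 and 4.62 in WT experiment 1 and 5.12, 4.97 and 5.40 in Casp9 KO. In experiment 2 it read 4.66, 4.69 and 4.48 on the wild-type arrays and 5.62, 5.41 and 6.10 on the Bak/Bax DKO arrays. All 6 knockout arrays were above background and all 6 wild-type arrays below it, with no overlap. On the bead intensity scale the groups of experiment 2 did overlap. Bak/Bax DKO replicate 2 read 104.8 there and WT experiment 2 replicate 1 read 110.2. C1qc was at least 1.14-fold higher in Casp9 KO (5.16 ± 0.22 against 4.52 ± 0.09) and at least 1.77-fold higher in Bak/Bax DKO (5.71 ± 0.35 against 4.61 ± 0.11, SD, n = 3). The fitted differences were 0.64 and 1.11 (SE 0.18 each). The double knockout difference was 1.25 without replicate 2, so for C1qc that array was the lowest of its group. Without background correction the differences were 0.22 in Casp9 KO and 0.37 in Bak/Bax DKO.

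C1qa, the A chain (ILMN_2776431, chromosome 4, 136452140 to 136452189, minus strand), had the smallest differences of the C1q genes. It read 4.82, 4.59 and 4.85 in WT experiment 1 and 5.17, 4.74 and 4.91 in Casp9 KO, where the groups overlapped and 1 of 3 knockout arrays was above background. In experiment 2 it read 4.68, 4.81 and 4.82 on the wild-type arrays and 4.86, 6.06 and 5.04 on the Bak/Bax DKO arrays. All 3 double knockout arrays were above background, but replicate 2 stood far above the others. On the bead intensity scale these groups overlapped, for example 102.3 on Bak/Bax DKO replicate 1 and 111.1 on WT experiment 2 replicate 1. With all 3 arrays the level was at least 1.35-fold higher (5.32 ± 0.65 against 4.77 ± 0.08, SD, n = 3). That bound rests on replicate 2, since the fitted difference of 0.55 (SE 0.27) became 0.18 without it. In Casp9 KO the fitted difference was 0.19 (SE 0.27).

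**Figure D2:**
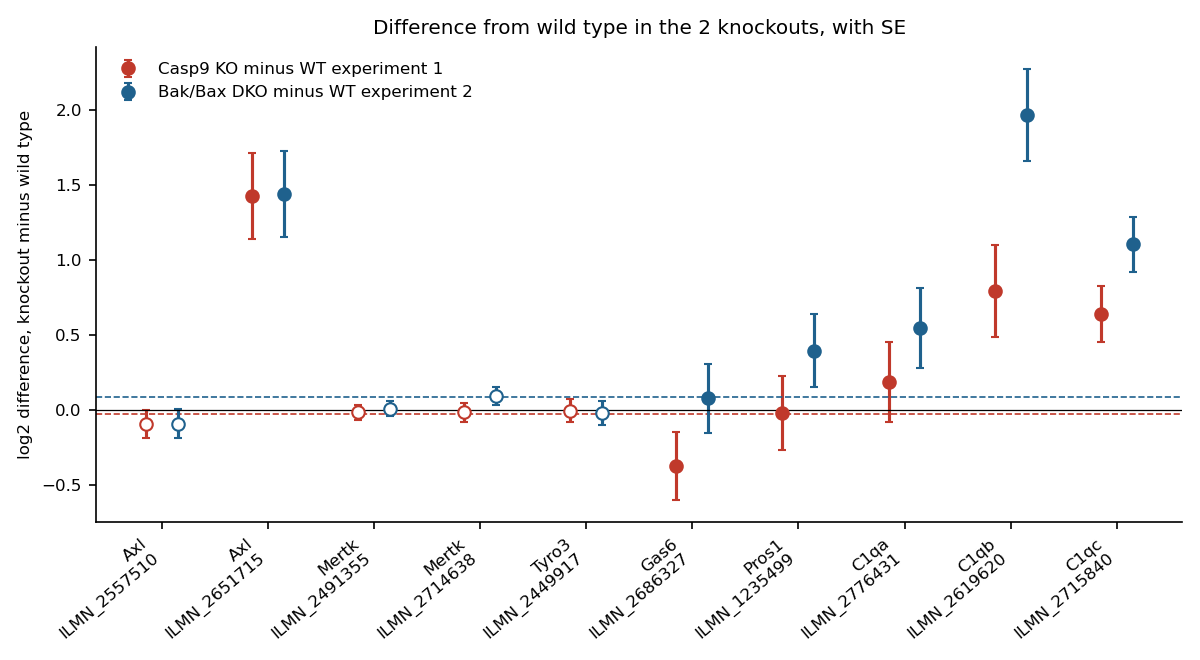
Log2 difference of each probe from the wild type of its own experiment (points) with its SE (bars), red for Casp9 KO and blue for Bak/Bax DKO; filled points are probes that passed the filter, and dashed lines are the median over all tested probes (-0.03 and 0.08). The Axl differences are 1.43 and 1.44, while C1qb is 0.79 in Casp9 KO and 1.97 in Bak/Bax DKO. The wild-type C1qb values are background readings, so its differences are not measured sizes.

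Of the 6 probes that passed, 3 were higher without overlap in Casp9 KO (Axl, C1qb and C1qc), 1 was lower (Gas6) and 2 overlapped. Over all tested probes, 10.4% were higher without overlap there and 13.4% lower. In Bak/Bax DKO, 4 of the 6 were higher without overlap (Axl and the 3 C1q genes), 0 were lower and 2 overlapped, where 11.8% of all tested probes were higher and 5.54% lower. Nothing is read from these counts, because the genes were chosen on these comparisons and the C1q probes passed the filter through the knockout arrays.

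Across the 12 arrays, after the mean of each experiment's wild type was subtracted, C1qb and C1qc correlated at r = 0.82, Axl and C1qb at 0.79, and Axl and C1qc at 0.79. Without Bak/Bax DKO replicate 2 these were 0.91, 0.80 and 0.78. C1qa and C1qb correlated at 0.75 with that array and 0.52 without it. Axl and Gas6 correlated at -0.15. These values describe arrays that share their knockout contrast, beadchip and normalization, so genes that differ between genotypes tend to correlate here.

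The wild types of the 2 experiments give the only comparison that the choice of genes did not use. Experiment and beadchip cannot be told apart in it. None of the 6 probes passed the test (limma adjusted p 0.560 to 0.994, smallest unadjusted p 0.266 for Gas6, lowest adjusted p under any alternative 0.128, with array weights). By comparison, 5.24% of all tested probes were higher in WT experiment 2 and 3.11% lower at an adjusted p under 0.05. The difference was -0.13 for Axl (SE 0.29), 0.27 for Gas6 (SE 0.23), 0.06 for Pros1 (SE 0.25), 0.02 for C1qa (SE 0.27), 0.02 for C1qb (SE 0.31) and 0.08 for C1qc (SE 0.18). The wild-type arrays of the 2 experiments overlapped for all 6. The C1q genes were below background on all 6 arrays, so for them the comparison holds no measured level.

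Few other genes of the pathway passed the test, and many were at background. They were followed in 6 lists, each gene by its tested probe with the highest mean, with calls at a limma adjusted p under 0.05 over all 18867 probes. At that threshold 0.880% of all tested probes were higher and 0.265% lower in Casp9 KO, and 1.43% were higher and 0.392% lower in Bak/Bax DKO. At an unadjusted p under 0.05 were 10.1% of all tested probes in Casp9 KO and 14.9% in Bak/Bax DKO, the shares to set beside the unadjusted counts of each list. Among receptors and bridging proteins for apoptotic cells, 12 of 23 genes were tested. In Casp9 KO 0 passed, with a median difference of 0.03, and 1 gene had an unadjusted p under 0.05, against 4 in Bak/Bax DKO. The double knockout had 0 higher and 1 lower, with a median of 0.22. The one that fell was Trem2, a lipid-sensing receptor of phagocytes (5.71 ± 0.31 to 4.73 ± 0.17, SD, n = 3, log2 difference -0.97, SE 0.17, limma adjusted p = 0.0179; -0.88 and 0.0177 without Bak/Bax DKO replicate 2). The call ended without WT experiment 2 replicate 2 (adjusted p = 0.0697) or replicate 3 (0.0761). Trem2 was above background on 1 of 3 Bak/Bax DKO arrays, so its difference is not a fully measured size. Timd4, Stab1, Cd36 and Msr1, phagocyte receptors for lipids or modified lipoproteins, were at background on all 12 arrays.

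Of the genes for find-me, eat-me and do-not-eat-me signals, 14 of 18 were tested and 0 passed in either knockout, with medians of 0.23 and 0.25 and 6 and 4 genes at an unadjusted p under 0.05. Cx3cr1, the receptor for the find-me chemokine fractalkine, was at 7.08 ± 0.52 in Casp9 KO against 5.86 ± 0.34 (SD, n = 3, difference 1.22, limma adjusted p = 0.0598). In Bak/Bax DKO it was at 7.05 ± 0.27 against 7.58 ± 0.14 (difference -0.52, adjusted p = 0.386). The double knockout effect minus the Casp9 KO effect was -1.74 and passed the test (limma adjusted p = 0.0491), as did 0.859% of all probes with a higher and 0.631% with a lower effect in Bak/Bax DKO. Of these calls 57.7% were higher, against 26.0% with median-centred arrays and 42.6% without Bak/Bax DKO replicate 2. The mean Cx3cr1 levels of the knockouts were 7.08 and 7.05, and the wild types themselves differed by 1.71 (adjusted p = 0.0032), with experiment and beadchip not separable. The effects differed by -1.88 without Bak/Bax DKO replicate 2 (adjusted p = 0.0088), and Cx3cr1 passed in Casp9 KO (adjusted p = 0.0113). Of the engulfment and phagosome genes, 19 of 22 were tested and 0 passed in either knockout (medians 0.05 and 0.09, 1 and 2 genes at an unadjusted p under 0.05). Both counts are below the shares over all probes, while both counts of the find-me list are above them. The smallest p of the engulfment and phagosome list belonged to Rac1, the GTPase that drives the phagocytic cup. Its difference in Bak/Bax DKO was 0.58 (SE 0.19, limma adjusted p = 0.174), or 0.47 without replicate 2 of that group.

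Partners and outputs of the TAM receptors had 12 of 15 genes tested, with 1 higher and 1 lower in Casp9 KO and 1 higher and 0 lower in Bak/Bax DKO. Their medians were 0.07 and 0.11, and leaving out Bak/Bax DKO replicate 2 turned the second to -0.10. Of the 12 genes, 5 in Casp9 KO and 3 in Bak/Bax DKO had an unadjusted p under 0.05, both above the shares over all probes. Twist1, a transcriptional repressor known to lie downstream of Axl, fell in Casp9 KO from 5.55 ± 0.08 to 4.84 ± 0.25 (difference -0.71, limma adjusted p = 0.0443), a call that ended when any of 10 of the 12 arrays was left out. Socs3, an inhibitor of cytokine receptors, rose in Bak/Bax DKO from 4.75 ± 0.16 to 5.92 ± 0.36 (difference 1.17, limma adjusted p = 0.0263). Without Bak/Bax DKO replicate 2 the difference was 0.97 (limma adjusted p = 0.0201). The Socs3 call ended when any of the 3 WT experiment 2 arrays was left out. Twist1 was above background on 1 of 3 Casp9 KO arrays and Socs3 on 1 of 3 WT experiment 2 arrays. Neither difference is therefore a fully measured size.

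Most complement genes other than C1q were not measurable. Only 9 of 28 other complement components, regulators and receptors were tested, and 0 passed in either knockout (medians 0.19 and -0.51, with 0 and 4 genes at an unadjusted p under 0.05). C3, the central component, was at 8.94 ± 0.83 in Bak/Bax DKO against 10.23 ± 0.10 (SD, n = 3, difference -1.30, limma adjusted p = 0.109). Its difference was -0.82 and the list's median -0.16 without Bak/Bax DKO replicate 2, and 1 gene of the list then fell (Cfp, properdin). C1ra and the complement receptor genes Itgam, Itgax, C3ar1, C5ar1 and Vsig4 were at background on all 12 arrays. Of the lipid and nuclear receptor genes of phagocytes, 7 of 15 were tested and 0 passed (medians -0.11 and 0.23, 1 and 2 genes at an unadjusted p under 0.05). Apoe, the lipid carrier, was at 10.04 ± 0.48 in Bak/Bax DKO against 8.94 ± 0.32 (difference 1.10, limma adjusted p = 0.0810; 0.82 without Bak/Bax DKO replicate 2). Over the 6 lists 2 genes passed in each knockout. These numbers became 6 in Casp9 KO and 3 in Bak/Bax DKO without replicate 2 of the latter.

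**Figure D3:**
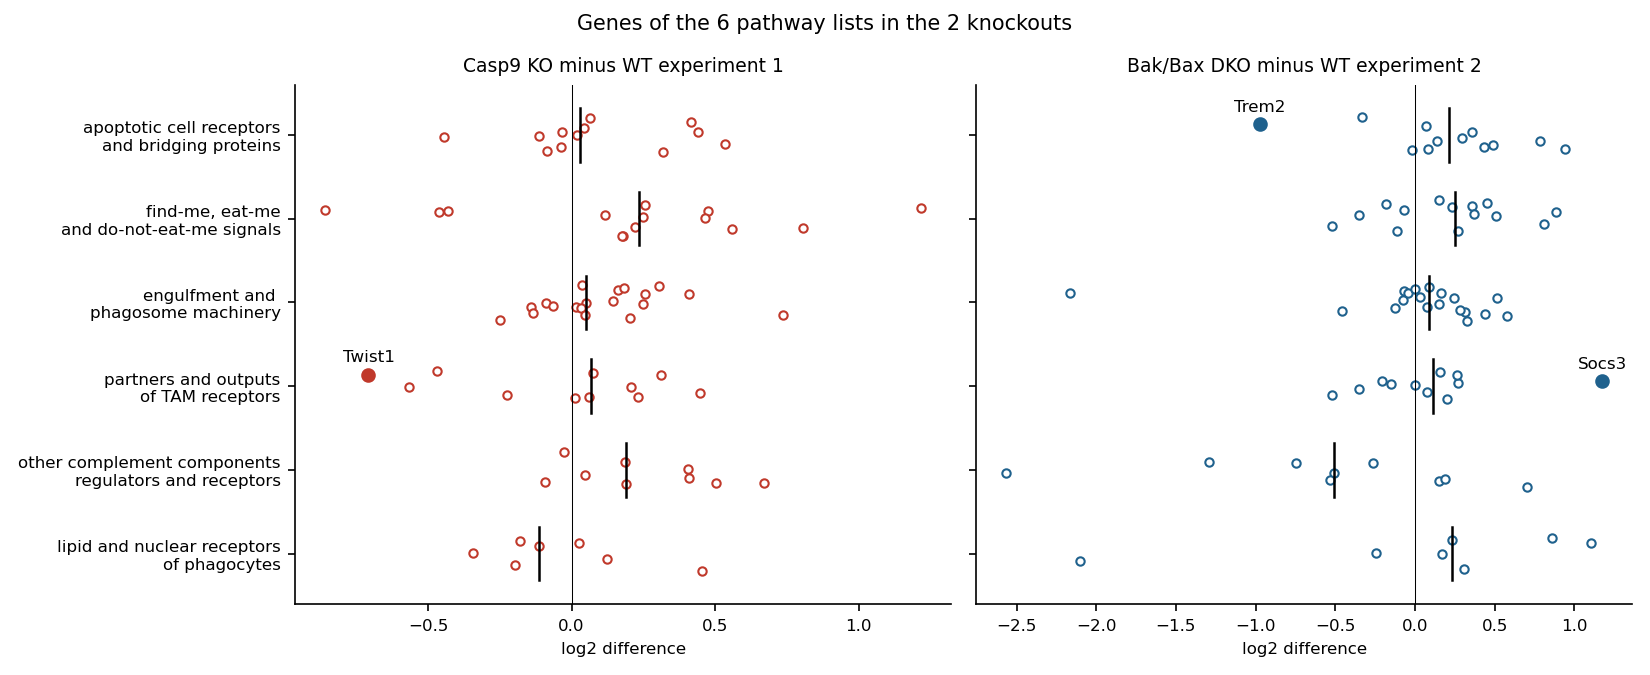
Log2 difference from wild type of each tested gene of the 6 pathway lists in Casp9 KO (left) and Bak/Bax DKO (right); filled, named points passed the limma test, open points did not, and black bars are medians of all tested genes of a list, 1 of which is not drawn. The named points are Twist1 (-0.71) on the left and Trem2 (-0.97) and Socs3 (1.17) on the right. Each was above background on 1 of 3 arrays in the lower group of its comparison.

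C1q and Axl are known from macrophages and dendritic cells, so the markers of those cells are given beside them, as summed linear levels (2 to the power of the log2 value, over the tested genes of a list). Macrophage markers, 11 of 15 tested, summed to 8371 to 9823 in WT experiment 1, 9083 to 11275 in Casp9 KO, 11026 to 11874 in WT experiment 2 and 9144 to 9424 in Bak/Bax DKO. The median difference over the 11 was 0.41 in Casp9 KO and 0.01 in Bak/Bax DKO, where 6 of 11 had a positive difference. Mpeg1, a pore-forming protein of macrophages, rose in Casp9 KO (difference 1.29, SE 0.27, limma adjusted p = 0.0474) and was at -0.10 in Bak/Bax DKO (adjusted p = 0.884), and the other 10 did not pass in either, with 3 and 2 of the 11 at an unadjusted p under 0.05. Siglec1, Hmox1 and Cd5l, markers of tissue macrophages, were at background on all 12 arrays. Adgre1, Cd68, Csf1r, Vcam1 and Cd163 of the same list were above background on all 12. The macrophage sum was 9144 on Bak/Bax DKO replicate 2 and 9221 and 9424 on replicates 1 and 3, below wild type on each. Lyz2 was at 11.84 ± 0.73 in Bak/Bax DKO against 11.67 ± 0.19. Slc40a1 and Ctsb varied on the double knockout arrays (SD 3.49 and 2.08) and had differences of -2.24 and -1.50 there. With replicate 2 of that group left out these were -0.23 and -0.30, the list's median was -0.26 and 0 passed in Bak/Bax DKO, while 2 were higher (Mpeg1 and Vcam1) and 1 lower (Slc40a1) in Casp9 KO. Genes named for such a change of call were chosen after their values were seen.

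Monocyte markers, 7 of 7 tested, summed to 12279 to 14134 in WT experiment 1, 17140 to 19811 in Casp9 KO, 15758 to 18002 in WT experiment 2 and 10068 to 16480 in Bak/Bax DKO, with 0 genes passing the limma test in either knockout and 5 and 3 at an unadjusted p under 0.05. The highest of the double knockout sums was that of replicate 2. Without it 2 of the 7 passed as higher in Casp9 KO (Ccr2 and Fcgr3) and 3 as lower in Bak/Bax DKO (Ly6c1, F13a1 and Fcgr3). Dendritic cell markers had 2 of 8 genes tested, Zbtb46 and Siglech, summing to 97.7 to 125 and 55.0 to 86.6 in experiment 1 and 138 to 170 and 110 to 141 in experiment 2, wild type first. Neither passed the limma test, with 1 at an unadjusted p under 0.05 in each knockout, and without Bak/Bax DKO replicate 2 Zbtb46 fell in Casp9 KO. Siglech, the 1 in Bak/Bax DKO, was above background only on the 3 WT experiment 2 arrays and passed the filter through them. Its difference is therefore not a measured size, and in the sums of the other groups it is a background reading. Itgax, Xcr1, Cd209a and Ccr9 were at background on all 12 arrays. The part of macrophages, monocytes or dendritic cells in the Axl and C1q differences was not tested.

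B cell and plasma cell markers, 7 of 11 tested, summed to 5603 to 6502 in WT experiment 1, 5808 to 7702 in Casp9 KO, 5425 to 6501 in WT experiment 2 and 7652 to 9861 in Bak/Bax DKO. Of these 0 passed the limma test in Casp9 KO, and 0 had an unadjusted p under 0.05 there, against 5 in Bak/Bax DKO. In the double knockout, Ighm, the mu heavy chain (1.17, limma adjusted p = 0.0197), and Cd74, the MHC class II invariant chain (3.05, adjusted p = 0.0051), rose. Cd79a was above background on 0 of 3 Bak/Bax DKO arrays and at least 1.34-fold lower (adjusted p = 0.0317, means 4.55 ± 0.09 and 5.33 ± 0.22, SD, n = 3). Without replicate 2 all 3 calls held, with differences of 1.03 for Ighm and 2.57 for Cd74. Pax5, Ms4a1 and Jchain were at background throughout. Endothelial and stromal markers, 5 of 11 tested, summed to 426 to 470 and 362 to 454 in experiment 1 and to 445 to 483 and 502 to 838 in experiment 2, wild type first. Emcn, an endothelial and stem cell sialomucin, was at least 2.97-fold lower in Casp9 KO (limma adjusted p = 0.0038, means 4.47 ± 0.15 and 6.51 ± 0.29, SD, n = 3), and Col1a1, Col3a1, Lepr and Sparc were at background on all 12 arrays. Of the 5 markers, 1 in Casp9 KO and 3 in Bak/Bax DKO had an unadjusted p under 0.05. Cxcl12 was called lower in Bak/Bax DKO when replicate 2 was left out.

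Most of the listed stem and progenitor markers were above background on every array, but not all. Procr was above it on 2, 1, 2 and 2 of 3 arrays in WT experiment 1, Casp9 KO, WT experiment 2 and Bak/Bax DKO. Hlf was above it on at most 1 of 12. Kit, the receptor used in the sort, was at 12.08 ± 0.06 in WT experiment 1, 11.79 ± 0.10 in Casp9 KO, 12.10 ± 0.24 in WT experiment 2 and 12.80 ± 0.23 in Bak/Bax DKO (SD, n = 3). Of 10 stem and progenitor markers 9 were tested, with sums of 20131 to 20746, 18937 to 20687, 19720 to 22216 and 21958 to 28817 in the same order. In Casp9 KO 0 passed the limma test and 0 had an unadjusted p under 0.05. In Bak/Bax DKO 3 of the 9 had an unadjusted p under 0.05. The transcription factors Gata2 (0.98, limma adjusted p = 0.0082) and Meis1 (0.96, adjusted p = 0.04999) rose there. Without replicate 2 the call on Gata2 held (0.86, adjusted p = 0.0051) and that on Meis1 ended (0.77, adjusted p = 0.0501).

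Type I interferon response genes moved with Axl in both knockouts. Their summed level was 1993 to 2261 in WT experiment 1 and 12701 to 16575 in Casp9 KO, and 1992 to 2130 in WT experiment 2 and 4096 to 6929 in Bak/Bax DKO, with 13 of 14 genes tested. Of these 12 rose in Casp9 KO (median of the list 3.30) and 9 in Bak/Bax DKO (median 1.42). These counts were 13 and 9 without Bak/Bax DKO replicate 2, with a median of 1.09 in Bak/Bax DKO. Oas2, an antiviral synthetase, had a difference of 3.71 in Casp9 KO and 2.39 in Bak/Bax DKO (limma adjusted p = 2.7e-05 and 8.0e-04), the latter 2.23 without that array. The Axl difference was of like size in both knockouts, at 1.43 and 1.44. The fitted C1qb difference, which is not a measured size, was larger in Bak/Bax DKO, where the interferon list's median was smaller. The part of the interferon response in the Axl and C1q differences was not tested.

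**Figure D4:**
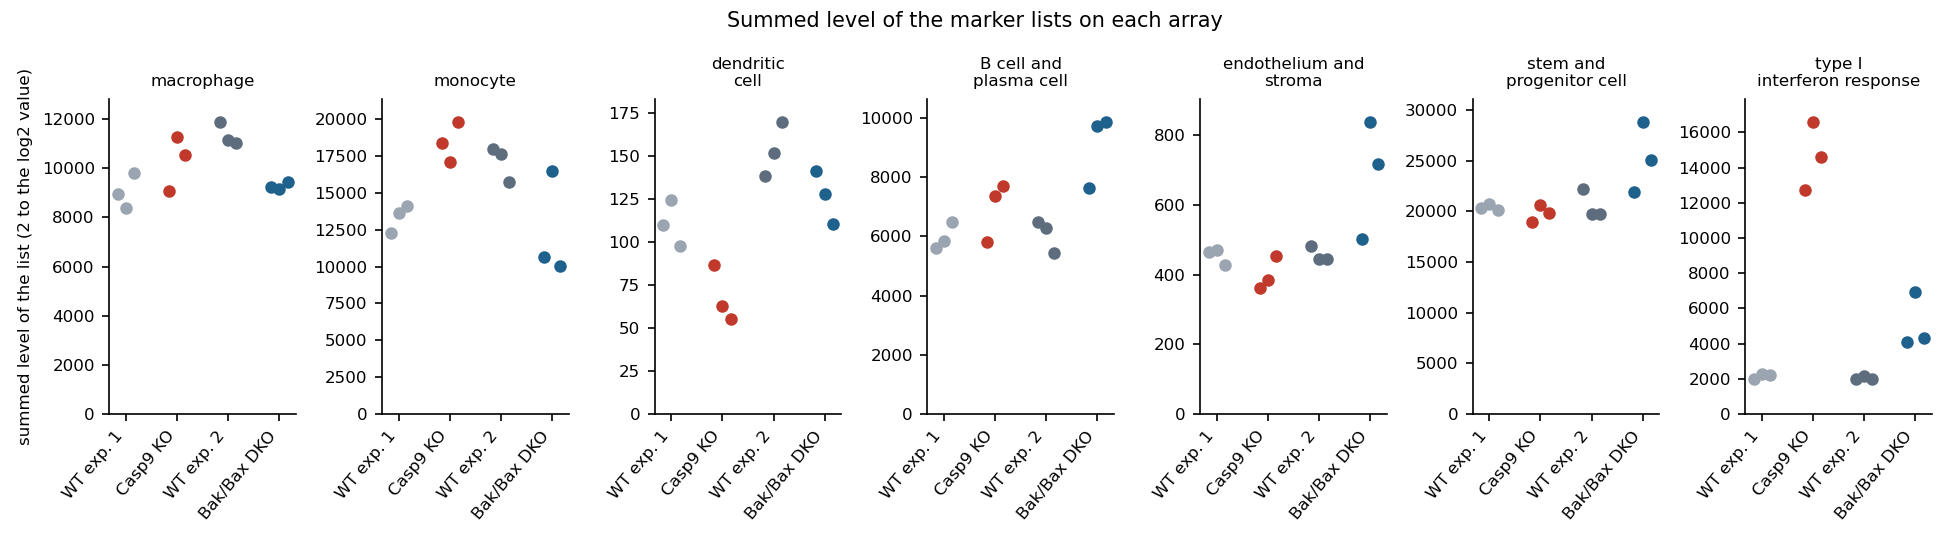
Summed linear level of each marker list (2 to the power of the log2 value, over its tested genes) on each of the 12 arrays, by group; each panel has its own vertical axis, starting at 0. The interferon sum is 1992 to 2261 on the wild-type arrays, 12701 to 16575 in Casp9 KO and 4096 to 6929 in Bak/Bax DKO, and the macrophage sum is 9144 to 9424 in Bak/Bax DKO against 11026 to 11874 in its wild type.

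The genes most like Axl over the 12 arrays, by Pearson correlation after the wild-type mean of each experiment was subtracted, were Serpina3g, a serine protease inhibitor of haematopoietic cells (r = 0.965), Thy1, a surface antigen of T cells and progenitors (0.955), a transcript with no gene symbol (0.955), Lag3, an inhibitory receptor of lymphocytes (0.951), and Irf9, the DNA-binding subunit of the interferon-activated factor ISGF3 (0.949). Serpina3g had differences of 1.33 in Casp9 KO and 1.38 in Bak/Bax DKO, Lag3 0.98 and 0.99, Thy1 0.97 and 0.82, and Irf9 0.72 and 0.97. Like Axl, each of these genes differed by a similar amount in the 2 knockouts. That follows largely from their choice by correlation with Axl on the same arrays, so it is no separate result. Without the subtraction, 2 of these 5 stayed among the 5 nearest, and by Spearman correlation 1 did.

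The genes most like C1qb were Krt18, a keratin (r = 0.963), Cd74, the invariant chain (0.949), H2-Ab1, an MHC class II beta chain (0.945), Il1b, the cytokine interleukin-1 beta (0.945), and Unc45b, a myosin chaperone known from muscle (0.943). Cd74 had differences of 0.76 in Casp9 KO and 3.05 in Bak/Bax DKO, H2-Ab1 0.70 and 1.54, Il1b 0.58 and 1.36, Krt18 0.51 and 0.93, and Unc45b 0.12 and 1.05. All 5 had the larger difference in Bak/Bax DKO, as in the fitted C1qb differences, and none of the 5 nearest to Axl is among them. The genes were picked for likeness to C1qb on these same arrays, so neither point is a separate result. Without Bak/Bax DKO replicate 2, where C1qb and Cd74 were both highest, the correlations were 0.903 to 0.942. Without the subtraction 4 of the 5 stayed, and by Spearman correlation 0 did. The arrays share genotype, beadchip and normalization, and the ranking describes these 12 arrays.

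**Figure D5:**
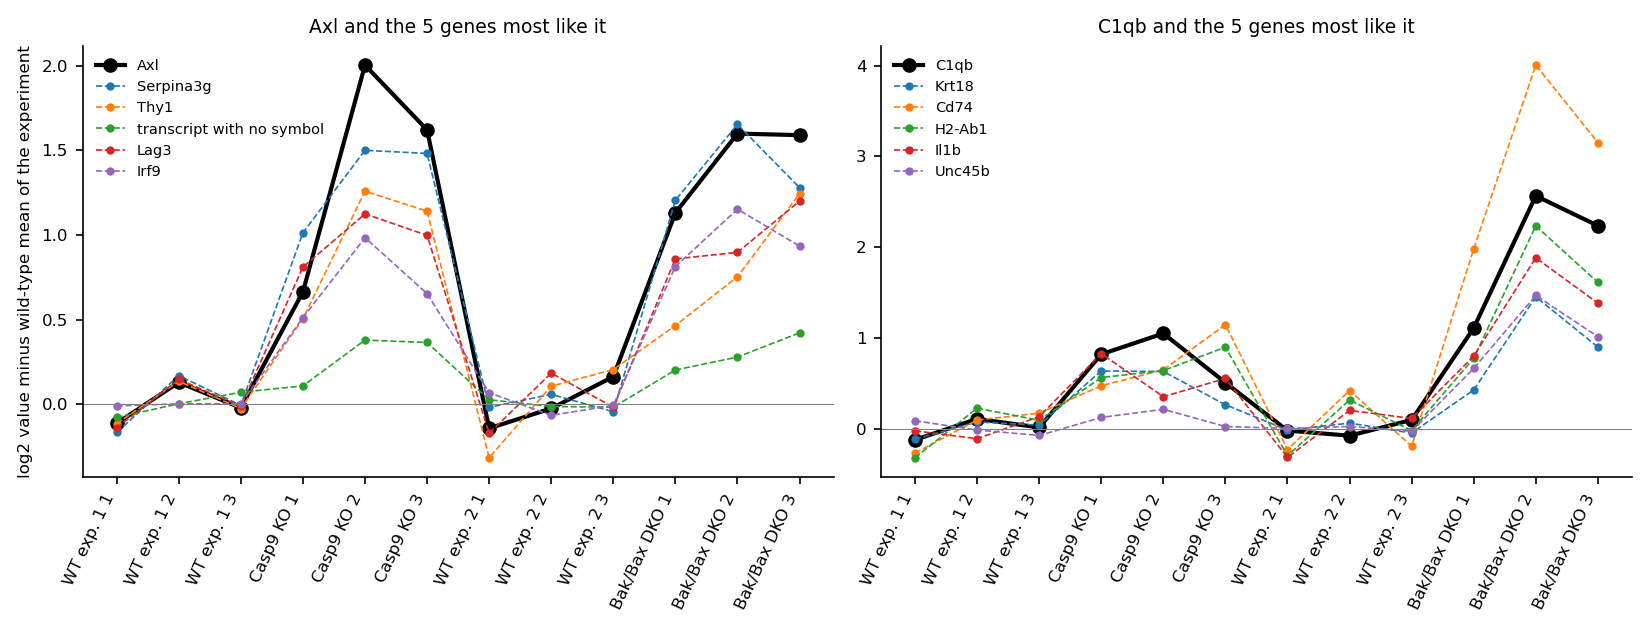
Log2 value minus the wild-type mean of the same experiment for Axl (left, black) and C1qb (right, black) with the 5 genes most like each (dashed), on the 12 arrays in order of group and replicate. The Axl group lies at similar heights in both knockouts, while the C1qb group is higher on the Bak/Bax DKO arrays, where Cd74 differs by 3.05 on average. The genes were picked by correlation on these arrays, so they share these patterns by choice.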

How the data were processed

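The authors deposited 1 bead intensity and 1 detection score per probe and array, and normalized log2 values, in 2 tables that are identical. Per the submitters' processing notes, GenomeStudio and limma were used. The detection p-value column deposited by the authors rises with intensity and was read as 1 minus p. Running neqc (offset 16, quantile) anew on the intensities gave log2 values within 0.0197 of those deposited. The analysis used the deposited log2 values of the 18867 of 45281 probes with detection p under 0.05 on at least 3 of 12 arrays, and limma 3.58.1 in R 4.3.3 (4 group means, eBayes, two-sided, Benjamini-Hochberg over all probes, called under 0.05). The fit was tested on simulated data that held no outlying array and no difference between experiments, so that test does not cover either.

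Members and gene lists were chosen with earlier results of these data known. From each pathway list the text names genes called, otherwise the 1 with the smallest p, and some genes at background; from each marker list, the 3 brightest and those called; and the 5 genes most like Axl and C1qb. Some genes that this rule names are not reported here. Probes of gene families such as MHC can bind related transcripts. A bound on a fold uses the lowest signal above background on each array, and bounds in Bak/Bax DKO include its replicate 2. Alternatives were other background correction, normalization, filter, variance model, array weights, arrays and features, and leaving out each array.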

Additional observations from a re-analysis of the deposited data

Results flagged for a closer look

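Genes of the lists are given here where the Bak/Bax DKO effect minus the Casp9 KO effect passed the limma test; none is a clearance receptor or a C1q gene, for which this difference was not tested. Lower in Bak/Bax DKO than in Casp9 KO were the effects on Cx3cr1 (-1.74, adjusted p = 0.0491, where the wild types differed by 1.71), the Fc receptor gene Fcgr3 (-1.09, adjusted p = 0.0476; 0.56 in Casp9 KO and -0.53 in Bak/Bax DKO), and the interferon-stimulated genes Rsad2 (-2.68, adjusted p = 0.0110), Usp18 (-2.03, adjusted p = 0.0272), Irf7 (-1.99, adjusted p = 0.0481) and Mx2 (-1.61, adjusted p = 0.0265). Mx2 was at background in both wild types, so its value is not a measured size; it was at least 5.41-fold higher in Casp9 KO and at least 1.84-fold in Bak/Bax DKO. These 4 interferon-stimulated genes rose in both knockouts, for example Rsad2 by 4.10 and 1.42. Higher in Bak/Bax DKO were the effects on Emcn (3.02, adjusted p = 0.0045) and Gata2 (1.04, adjusted p = 0.0407; -0.06 in Casp9 KO). Emcn was above background on 0 of 3 Casp9 KO arrays and at least 2.97-fold lower there, so its value is not a measured size either; in Bak/Bax DKO its difference was 0.98. Without Bak/Bax DKO replicate 2 all 8 kept their sign and passed: Cx3cr1 at -1.88, Fcgr3 at -1.29, Rsad2 at -3.01, Usp18 at -2.37, Irf7 at -2.39, Mx2 at -1.66, Emcn at 2.67 and Gata2 at 0.92.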

How the results depend on the processing

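The differences of Axl, C1qb, C1qc and C1qa kept their direction in both knockouts in 21 of 21 alternatives, as did Gas6 in Casp9 KO and Pros1 in Bak/Bax DKO. Gas6 in Bak/Bax DKO kept it in 18 and Pros1 in Casp9 KO in 15. Signal over background limits the C1q genes and Gas6, whose wild-type or knockout values lie at the detection limit, so sizes move with the background correction. Without it Axl differed by 0.78 in Casp9 KO and 0.73 in Bak/Bax DKO, and C1qb by 0.30 and 0.78. In Bak/Bax DKO, Axl differed by 1.19 with median-centred arrays and 1.22 with array weights, which give replicate 2 a weight of 0.0655. C1qa differed by 0.15 there with array weights. Leaving out each array in turn gave 1.14 to 1.81 for Axl in Casp9 KO and 1.36 to 1.59 in Bak/Bax DKO, and 0.66 to 0.94 and 1.67 to 2.40 for C1qb.

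The number of probes called was 216 in Casp9 KO, 344 in Bak/Bax DKO, 281 for the difference of effects and 1576 between wild types. Array weights gave 1184, 554, 1078 and 5221. With only the 6 arrays of a comparison there were 640 in Casp9 KO and 39 in Bak/Bax DKO. Median-centred arrays gave 153 in Bak/Bax DKO, 57.5% of them higher against 78.5%, and 794 between wild types, 78.5% higher against 62.8%. For the difference of effects they gave 223, with 26.0% higher against 57.7%, so most calls were then lower. With 1 probe per gene 856 were called between wild types. Leaving out an array gave 111 to 802, 133 to 571, 104 to 997 and 697 to 3741; the count was 802, 562, 997 and 3741 without Bak/Bax DKO replicate 2. Array weights made 55.2%, 60.1%, 45.2% and 48.8% of calls higher, and the 6 arrays 60.0% and 61.5%.

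Of the pathway genes, 2 were called in each knockout. In Casp9 KO it was 1 without background correction or with median-centred arrays, 9 with array weights, 6 with 6 arrays and 1 to 6 when an array was left out. In Bak/Bax DKO it was 0 without background correction or with 6 arrays, 1 with median-centred arrays or without the filter, and 0 to 5 when an array was left out. The cause of these changes was not tested.

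Same-numbered arrays deviated together at r = 0.20, -0.08 and 0.07 in experiment 1 and 0.11, 0.05 and 0.06 in experiment 2. Arrays of different number deviated at -0.18 to 0.14 in experiment 1 and -0.07 to -0.004 in experiment 2. Same-numbered arrays thus lay above the others in experiment 2 but not in experiment 1. Whether the numbers mark a pairing was not tested. With the replicate number as a block 131, 158 and 102 probes were called in Casp9 KO, Bak/Bax DKO and their difference. Pathway genes called were then 1 in Casp9 KO and 0 in Bak/Bax DKO. Trem2, Twist1 and Socs3 were not called. Member differences cannot move with this block, because each replicate number occurs once in each group.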
